A study of Homo sapiens with 31 samples.

Results

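LS1034, a cell line from an adenocarcinoma of the cecum, was set against LoVo, HT-29 and HCT116, which the labels give as adenocarcinoma lines of the colon. A gene was taken as distinct in LS1034 when it differed in the same direction from each of the 3 lines, at a Benjamini-Hochberg (BH) adjusted p under 0.05 and a fold of at least 2 in edgeR's quasi-likelihood (QL) test. That rule gave 1114 of the 14452 genes tested, 569 of them higher in LS1034 than in each line and 545 lower, out of 17113 protein-coding genes in the count table. The series holds 31 libraries of total RNA and mixed RNA of each cancer line with RNA of CCD 841 CoN, a normal colon line, to ask whether a cancer profile can be recovered from a mixture. LS1034, LoVo, HT-29 and HCT116 each had 3 unmixed libraries, all labelled wild type and untreated, and the fit also held 3 unmixed libraries of CCD 841 CoN. The cells grew in RPMI-1640 or DMEM with serum, and since the labels do not say which line had which medium, line and medium cannot be told apart. Each group is 1 line from 1 tumour, so the values describe LS1034 and not tumours of the cecum. The labels do not say whether libraries 1 to 3 of a line stem from different cultures, and the p-values measure only the spread between these libraries, which may be technical.

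The epithelium of the large bowel renews itself from stem cells at the base of the crypts, where Wnt signals keep the cells dividing. Their daughters move up the crypt and become absorptive colonocytes, which carry a brush border of microvilli, or secretory cells such as goblet cells. Transcription factors of the CDX, HNF and GATA families hold the genes of these cells on. Colorectal cancers nearly always have an active Wnt pathway, and lines made from them keep different parts of the colonocyte programme. Cancer cells can also lower the display of peptides on HLA molecules, by which T cells recognise them.

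The unmixed LS1034 libraries held 13396200 to 34253797 counts and the 9 libraries of the other lines 10800329 to 37418506. Levels are given as CPM, read counts scaled to library size with TMM factors, in the order of libraries 1 to 3, and they depend on transcript length, so they are compared between lines and not between genes. Across all genes tested, the LS1034 libraries ranked genes most like each other (Spearman 0.958 to 0.971) and less like those of HT-29 (0.855 to 0.873), LoVo (0.825 to 0.868) and HCT116 (0.789 to 0.830). All 10 marker genes of colon epithelium stood at 1 CPM or more in LS1034, as in LoVo and HT-29, and 6 did in HCT116. They summed to 13186 to 18334 CPM in LS1034 and to 14995 to 27011 CPM in HT-29. LoVo had 7456 to 12251 CPM and HCT116 2992 to 5630 CPM. The marker KRT20 averaged 477 ± 85.3 CPM in LS1034 and 505 ± 89.5 CPM in HT-29. Summed fibroblast markers reached 5.08 to 10.1 CPM in LS1034, against 30434 to 34726 CPM in CCD 841 CoN, and summed immune cell markers 0.461 to 2.34 CPM in LS1034. Endothelial markers summed to 2.01 to 4.27 CPM in LS1034 with CLDN5 at 0, against at most 1.77 CPM in a library of the 3 other lines. Neural and muscle markers summed to 5.30 to 10.8 CPM in LS1034 with ELAVL3 at 0, against 0.307 to 3.16 CPM.

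The 569 higher genes are 3.94% and the 545 lower genes 3.77% of the genes tested. The counts of called list members below are to be read beside these shares. The log2 fold change given for a gene below is the one nearest to 0 of its 3 comparisons, with its SE and the line it belongs to, and the adjusted p is the largest of the 3. By that measure the higher genes had a median log2 fold change of 2.91 and the lower genes one of -2.48, and 192 higher and 116 lower genes differed at least 16-fold from the nearest line. Of the higher genes, 543 had all 3 LS1034 libraries above all 9 others (7.41% of all genes tested did), and of the lower genes 485 had all 3 below (5.7% did). These libraries also chose the genes, so the counts only describe them. Genes named below for the largest folds were required not to overlap, so for them the lack of overlap is no result. Part of the called genes were under 1 CPM on the lower side. 226 higher genes stayed under 1 CPM in each of the other lines, 65 of them at 10 CPM or more in LS1034, and 236 lower genes were under 1 CPM in LS1034, 29 of them at 10 CPM or more in each other line. The filter on low counts can keep a gene for its level in LS1034 alone. How many of all genes tested had such levels was not counted, so these counts also only describe the genes. At the edge of the fold limit, RAD50, a DNA repair protein, lay just inside at 1.01 and NHSL1 just outside at 0.9999. On the lower side TRIP13, a mitotic checkpoint protein, lay inside at -1.002 and DEPDC1 outside at -0.997. A further 70 higher and 63 lower genes passed the p-value and not the fold limit.

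Against the mean of the 3 lines, each weighted equally, 1990 genes were higher (13.8%) and 1575 lower (10.9%) in LS1034. Only 28.6% of those higher and 34.6% of those lower differed from each line, and 88 genes called against the mean were called in the opposite direction against a single line. Single comparisons called 1853 higher and 1903 lower genes against LoVo (12.8% and 13.2%), 1643 and 1622 against HT-29 (11.4% and 11.2%), and 2401 and 2353 against HCT116 (16.6% and 16.3%). In all, 429 genes, the 88 among them, were called higher in LS1034 than in one line and lower than in another. The same rule applied to the other lines gave 351 higher and 316 lower genes for LoVo, 488 and 422 for HT-29, and 537 and 717 for HCT116, and whether these counts differ was not tested.

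**Figure D1:**
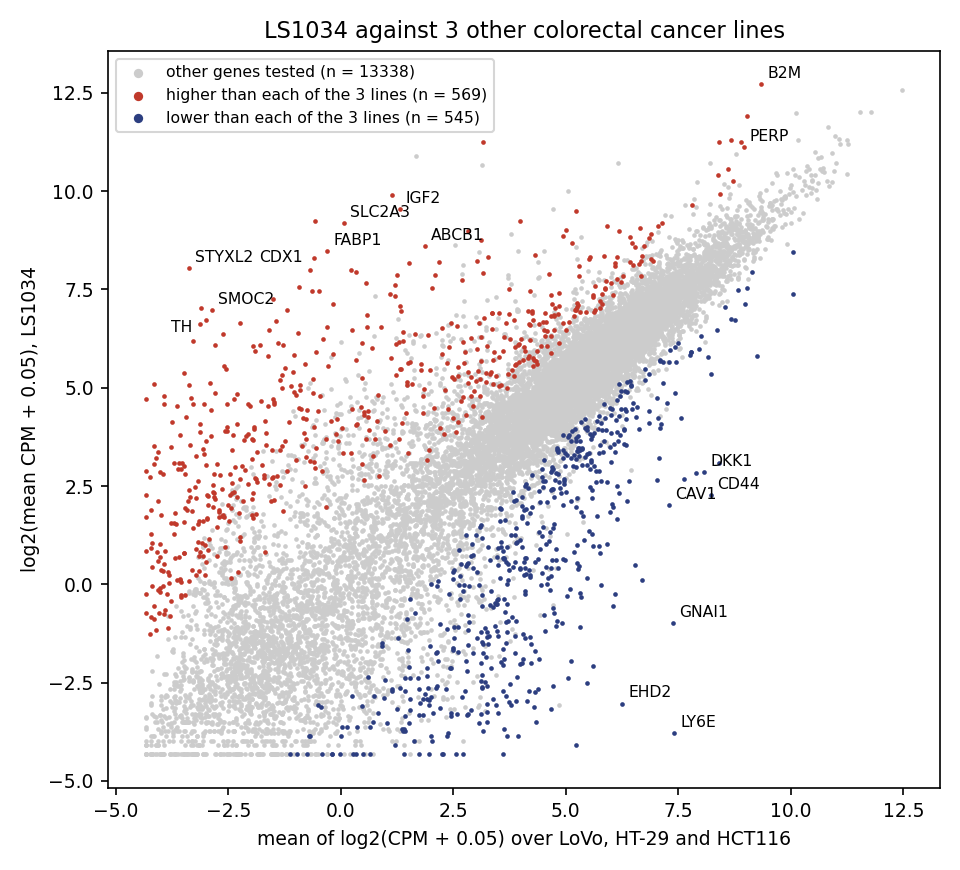
Each point is 1 gene tested, with the log2 of its mean CPM in LS1034 on the vertical axis and the mean of its log2 levels in the 3 other lines on the horizontal axis, both after adding 0.05 CPM. The 569 genes higher than each line (red) lie above the cloud and the 545 lower ones (blue) below it, with CDX1 and FABP1 among the red and LY6E and GNAI1 among the blue.

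LS1034 had far more transcript of several regulators of the intestinal epithelium than the other lines. Of 25 tested genes on a list of intestinal transcription factors, 5 were higher than each line (CDX1, CREB3L3, ISX, PROX1 and SOX4) and 0 lower, and the list's median log2 fold change against the mean was 1.77, beside 0.02 over all genes tested. CDX1, a homeobox factor that drives intestinal identity, stood at 272, 405 and 263 CPM in LS1034 and at 0 to 5.83 CPM (median 1.06) in the 9 other libraries. CREB3L3, a factor of the enterocyte and liver that acts on lipid genes, stood at 78.03, 92.01 and 145 CPM, against 0 to 0.624 CPM (median 0.03002). The groups did not overlap for either gene, and CDX1 was near 0 in HCT116. In such bulk libraries, fewer cells with a transcript and less of it per cell cannot be told apart. The log2 fold change of CDX1 was 6.69 ± 0.66 against LoVo (edgeR QL, BH adjusted p = 4.57e-06) and that of CREB3L3 8.18 ± 0.77 against HCT116 (edgeR QL, BH adjusted p = 1.99e-06). ISX, an intestinal homeobox factor that controls vitamin A uptake, stood at 16.5, 11.6 and 15.5 CPM, against 0 to 0.401 CPM (median 0.0345). PROX1, a homeobox factor linked to Wnt signalling in the bowel, stood at 212, 101 and 105 CPM, against 0 to 9.77 CPM (median 0.817). Both rose without overlap, ISX by 6.53 ± 1.02 against HCT116 (edgeR QL, BH adjusted p = 1.73e-04) and PROX1 by 4.32 ± 0.602 against HT-29 (edgeR QL, BH adjusted p = 6.29e-05).

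Other factors of that list set LS1034 apart from only some of the lines. CDX2, the partner of CDX1 in keeping the bowel's identity, averaged 125 ± 33.7 CPM in LS1034, 70.6 ± 25.6 CPM in LoVo, 4.02 ± 2.13 CPM in HT-29 and 12.3 ± 2.64 CPM in HCT116 (SD, n = 3 each). Its difference from LoVo did not pass the test (0.83 ± 0.43 against LoVo, edgeR QL, BH adjusted p = 0.17). HNF4A, a nuclear receptor of the gut and liver, averaged 122 ± 42.3 CPM in LS1034 and 113 ± 43.3 CPM in LoVo, against 45.1 ± 15.4 CPM in HT-29 and 3.61 ± 0.614 CPM in HCT116. LS1034 and LoVo thus held the upper 2 of the 4 mean levels for both factors, and HNF4A did not pass the test against LoVo (edgeR QL, BH adjusted p = 0.858).

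Genes of the brush border and of mature colonocytes were higher as well. Of 22 tested genes on the brush border list, CDHR1 among them, 7 (31.8%) were higher than each line and 0 lower (median log2 fold change against the mean 3.18). Of 20 products of colonocytes and enterocytes, 7 (35%) were higher and 1 lower (median 4.79). Over all genes tested, 3.94% were higher. FABP1, the fatty acid binding protein of liver and gut, stood at 272, 366 and 434 CPM in LS1034 and at 0 to 10.4 CPM (median 1.38) in the others. GUCY2C, the receptor for the hormone guanylin, stood at 327, 225 and 212 CPM, against 0 to 7.698 CPM (median 0.341), and PHGR1, a short protein of the gut epithelium, at 529, 962 and 1364 CPM, against 0 to 38.4 CPM (median 7.596). All 9 other libraries lay below the lowest LS1034 library for these 3 genes. Their log2 fold changes were 6.17 ± 0.81 against HT-29 (edgeR QL, BH adjusted p = 6.53e-05), 5.28 ± 0.47 against LoVo (edgeR QL, BH adjusted p = 7.95e-07) and 5.19 ± 0.49 against HT-29 (edgeR QL, BH adjusted p = 3.68e-06). GPA33, a surface antigen of the intestinal epithelium, rose by 2.47 ± 0.45 against LoVo (edgeR QL, BH adjusted p = 7.70e-04), and GUCA2A, which encodes guanylin itself, by 3.37 ± 0.81 against LoVo (edgeR QL, BH adjusted p = 0.0076). SLC26A3 and SLC9A3, ion exchangers of the colonocyte's luminal membrane, completed the 7, at low levels of 4.95 ± 3.51 CPM and 1.73 ± 0.319 CPM in LS1034. The call of SLC26A3 ended without LS1034 replicates 1 and 3, LoVo replicates 1 and 3 and HCT116 replicates 1 and 3 (adjusted p of 0.0511 to 0.0964), and that of SLC9A3 ended without LS1034 replicates 1, 2 and 3, LoVo replicates 1, 2 and 3 and HT-29 replicate 2, with no filter on low counts and in a fit of the cancer libraries alone (adjusted p of 0.0517 to 0.11). CA2, the cytosolic carbonic anhydrase of the colonocyte, was the exception to the list's direction and is described with the genes lower in LS1034.

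Among the members of the brush border list, MEP1A, a metalloprotease of the microvillus membrane, stood at 136, 20.1 and 53.9 CPM in LS1034 and at 0 to 1.45 CPM (median 0.216) in the others. CDHR2, one of the protocadherins that link the tips of microvilli, stood at 23.3, 22.8 and 29.4 CPM, against 0 to 0.796 CPM (median 0.189). CDHR1, a cadherin-related protein, is counted as a member of the list and not as one of these tip proteins. It stood at 16.2, 42.9 and 5.15 CPM, against 0 to 0.997 CPM (median 0.0378). The 3 genes did not overlap between the groups, though MEP1A and CDHR1 varied several-fold between LS1034 libraries. They rose by 6.34 ± 1.04 against HT-29, 5.67 ± 0.92 against LoVo and 5.35 ± 0.88 against LoVo (edgeR QL, BH adjusted p = 4.44e-04, 2.16e-04 and 3.74e-04). EPS8L3, an actin regulator of the EPS8 family, rose by 1.29 ± 0.33 against HT-29 (edgeR QL, BH adjusted p = 0.00865). VIL1, the actin bundler villin of microvilli, stood at 385, 557 and 364 CPM in LS1034, and HT-29 came nearest with 222, 196 and 195 CPM (1.09 ± 0.36 against HT-29, edgeR QL, BH adjusted p = 0.0364). Less firmly called were VIL1, MYO7B, a myosin of the microvillus tip complex, and MISP, an actin-bundling protein. The call of VIL1 ended without LS1034 replicates 1 and 2 and HT-29 replicates 1, 2 and 3 and in a fit of the cancer libraries alone (adjusted p of 0.0566 to 0.132). That of MYO7B ended without LS1034 replicates 1, 2 and 3, LoVo replicate 1 and HT-29 replicates 2 and 3 and with scaling by library size alone (adjusted p of 0.0516 to 0.142). That of MISP ended without LS1034 replicates 2 and 3, LoVo replicates 1 and 2, HT-29 replicates 1, 2 and 3 and HCT116 replicate 3, with DESeq2 size factors, with scaling by library size alone and in a fit of the cancer libraries alone (adjusted p of 0.0509 to 0.204).

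The APOBEC1 enzyme, which edits the messenger of apolipoprotein B in the gut, and its cofactor A1CF were both higher in LS1034; this pair was chosen after its values were seen. APOBEC1 stood at 54.7, 65.1 and 82.5 CPM in LS1034 and at 0 to 0.962 CPM (median 0) in the others, with 48 counts in all 9 (6.55 ± 0.597 against HT-29, edgeR QL, BH adjusted p = 7.12e-06). A1CF stood at 34.5, 26.4 and 22.4 CPM, against 0.06003 to 1.56 CPM (median 0.713) (4.76 ± 0.94 against LoVo, edgeR QL, BH adjusted p = 0.00157). APOA2, an apolipoprotein of lipid particles, stood at 6.25, 7.78 and 20.4 CPM in LS1034, against 2 counts in the 9 other libraries. That is a ratio of 1039-fold (counting interval 286 to 8595). DESeq2 did not call it (adjusted p = 0.118).

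The promoters of FABP1 and APOBEC1 are shown because both genes were near 0 in at least 1 of the other lines and both windows hold motifs of intestinal factors. Each run is 300 bases, 250 before and 50 after the start that RefSeq gives in GRCh38.p14, and capitals mark CpG pairs. The FABP1 window lies at chr2:88128013-88128312 on the minus strand and holds 7 CpG, 1 or more matches to the CDX motif TTTATNG and 1 or more to the GATA motif GATAA. The APOBEC1 window lies at chr12:7665859-7666158 on the minus strand and holds 3 CpG, the HNF4 motif CAAAGTCCA and the GATA motif.
FABP1: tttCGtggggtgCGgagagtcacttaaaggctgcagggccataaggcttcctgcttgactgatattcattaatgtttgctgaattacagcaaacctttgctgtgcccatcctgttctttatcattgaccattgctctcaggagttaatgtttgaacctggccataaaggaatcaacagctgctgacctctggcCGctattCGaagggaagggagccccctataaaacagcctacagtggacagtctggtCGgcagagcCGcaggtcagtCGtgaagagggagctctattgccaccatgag
APOBEC1: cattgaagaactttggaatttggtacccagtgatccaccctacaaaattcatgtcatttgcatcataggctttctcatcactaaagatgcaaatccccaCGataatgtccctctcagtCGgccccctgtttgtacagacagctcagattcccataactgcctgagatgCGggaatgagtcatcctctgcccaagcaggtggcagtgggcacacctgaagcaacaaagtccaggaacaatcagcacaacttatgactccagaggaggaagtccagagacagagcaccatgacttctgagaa

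The lists of secretory cells differed from each other. Of 22 tested goblet cell products, TFF2 and TFF3 were higher and CREB3L1 lower (median log2 fold change against the mean -0.60). Of 10 genes of Paneth cells and secreted defence, REG3A and OLFM4 were higher (20%) and 0 lower, with a median of 2.12. TFF3, a trefoil peptide that goblet cells secrete with mucus, stood at 170.5, 79.9 and 281 CPM in LS1034, while HT-29 had 21.9, 29.2 and 46.9 CPM and LoVo and HCT116 stayed under 1 CPM. Its fold was smallest against HT-29 (2.44 ± 0.51 against HT-29, edgeR QL, BH adjusted p = 0.00202). TFF2, the related peptide of the stomach, stood at 64.1, 28.6 and 85.8 CPM, against 0 to 5.14 CPM (median 0.757) (3.97 ± 0.64 against LoVo, edgeR QL, BH adjusted p = 3.11e-04). MUC2, the main secreted mucin of goblet cells, averaged 1.903 ± 0.384 CPM in LS1034, 16.7 ± 8.49 CPM in LoVo, 4.45 ± 4.13 CPM in HT-29 and 0.0288 ± 0.0499 CPM in HCT116 and was not called against HT-29 (edgeR QL, BH adjusted p = 0.242). REG3A, an antibacterial lectin, stood at 63.5, 18.3 and 20.4 CPM in LS1034, against 2 counts in the 9 others, a ratio of 4527-fold (counting interval 1252 to 37394). OLFM4, a secreted glycoprotein of crypt base cells, stood at 1.37, 22.6 and 3.46 CPM, again against 2 counts, a ratio of 1021-fold (counting interval 281 to 8446). The edgeR QL test called both (BH adjusted p = 5.81e-05 and 0.00244), and DESeq2 called neither (adjusted p = 0.0589 and 0.144). CREB3L1, a factor of secretory cells, averaged 0.118 ± 0.1003 CPM in LS1034 and 0.353 ± 0.231 CPM in HCT116, and its call ended without LS1034 replicates 1 and 2, LoVo replicates 1 and 3, HT-29 replicate 2 and HCT116 replicates 1 and 2 and in a fit of the cancer libraries alone (adjusted p of 0.0521 to 0.153). Of 12 enteroendocrine genes 1 was higher, the homeobox factor PAX6 at 40.4, 20.1 and 40.4 CPM, against 0.997 to 6.93 CPM (median 2.45) (2.37 ± 0.45 against HCT116, edgeR QL, BH adjusted p = 5.68e-04).

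The Wnt pathway list had the most called members over both directions together. Of 30 tested Wnt targets and stem cell genes, 8 were higher in LS1034 than in each line (SMOC2, NKD1, APCDD1, ASCL2, AXIN2, EPHB2, TCF7 and TDGF1) and 5 lower (DKK1, CD44, KREMEN1, PTK7 and LRIG1), with a median log2 fold change against the mean of 1.63. SMOC2, a secreted matrix protein of crypt stem cells, stood at 87.96, 232 and 57.4 CPM in LS1034 and at 0 to 0.290 CPM (median 0.0692) in the others. ASCL2, a factor that marks and maintains crypt stem cells, stood at 167, 299 and 270.1 CPM, against 0 to 24.2 CPM (median 2.06). Neither gene overlapped between the groups, and HT-29 came nearest for ASCL2. SMOC2 rose by 9.66 ± 0.93 against LoVo (edgeR QL, BH adjusted p = 3.95e-06) and ASCL2 by 4.25 ± 0.52 against HT-29 (edgeR QL, BH adjusted p = 3.38e-05). NKD1 and APCDD1, targets that damp the pathway in return, stood at 401, 196 and 97.1 CPM and 129, 85.5 and 33.6 CPM, against 0.552 to 5.75 CPM (median 3.43) and 0 to 1.503 CPM (median 0). They rose by 5.61 ± 0.57 against LoVo (edgeR QL, BH adjusted p = 2.53e-06) and 5.998 ± 0.66 against LoVo (edgeR QL, BH adjusted p = 1.12e-05). AXIN2, the classical feedback inhibitor, stood at 189.8, 205 and 113 CPM, against 8.38 to 67.7 CPM (median 42.1), a smaller rise of 1.42 ± 0.28 against LoVo (edgeR QL, BH adjusted p = 0.00107). EPHB2, a receptor that positions cells in the crypt, rose by 1.71 ± 0.36 against LoVo (edgeR QL, BH adjusted p = 0.00183). The calls of TCF7, a factor through which beta-catenin acts, and of TDGF1, an EGF-CFC co-receptor with near-identical gene copies, held less well. TCF7 lost its call without LS1034 replicates 1, 2 and 3 and HT-29 replicates 1 and 2 (adjusted p of 0.0504 to 0.113), and TDGF1 without LS1034 replicates 1 and 3 and HT-29 replicates 2 and 3 (adjusted p of 0.1 to 0.149).

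The 5 Wnt list genes that fell include antagonists and surface proteins. DKK1, a secreted inhibitor of Wnt receptors, stood at 4.33, 4.57 and 12.6 CPM in LS1034 and at 120.2 to 427 CPM (median 247) in the others. KREMEN1, the receptor that works with DKK1, stood at 9.35, 11.3 and 3.23 CPM, against 17.5 to 52.5 CPM (median 34.2). CD44, the hyaluronan receptor and a Wnt target, stood at 8.096, 3.79 and 2.38 CPM, against 110.1 to 744 CPM (median 382). All 3 LS1034 libraries were below all 9 others for each gene. The log2 fold changes were -5.03 ± 0.54 against HCT116 (edgeR QL, BH adjusted p = 3.68e-06), -1.87 ± 0.41 against HT-29 (edgeR QL, BH adjusted p = 0.0027) and -4.61 ± 0.403 against LoVo (edgeR QL, BH adjusted p = 6.62e-07). LRIG1, an inhibitor of EGF receptor signalling in stem cells, fell too (-1.27 ± 0.33 against HCT116, edgeR QL, BH adjusted p = 0.00581). PTK7, a co-receptor of Wnt signalling, was called, and the call ended without LS1034 replicate 3 and LoVo replicate 2 (adjusted p of 0.0739 to 0.0974). LGR5, the receptor that defines crypt stem cells, split the lines. It averaged 26.3 ± 11.6 CPM in LS1034, 569 ± 197 CPM in LoVo, 2.03 ± 1.43 CPM in HT-29 and 0.0677 ± 0.0924 CPM in HCT116, so that LS1034 lay between LoVo and the other lines.

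**Figure D2:**
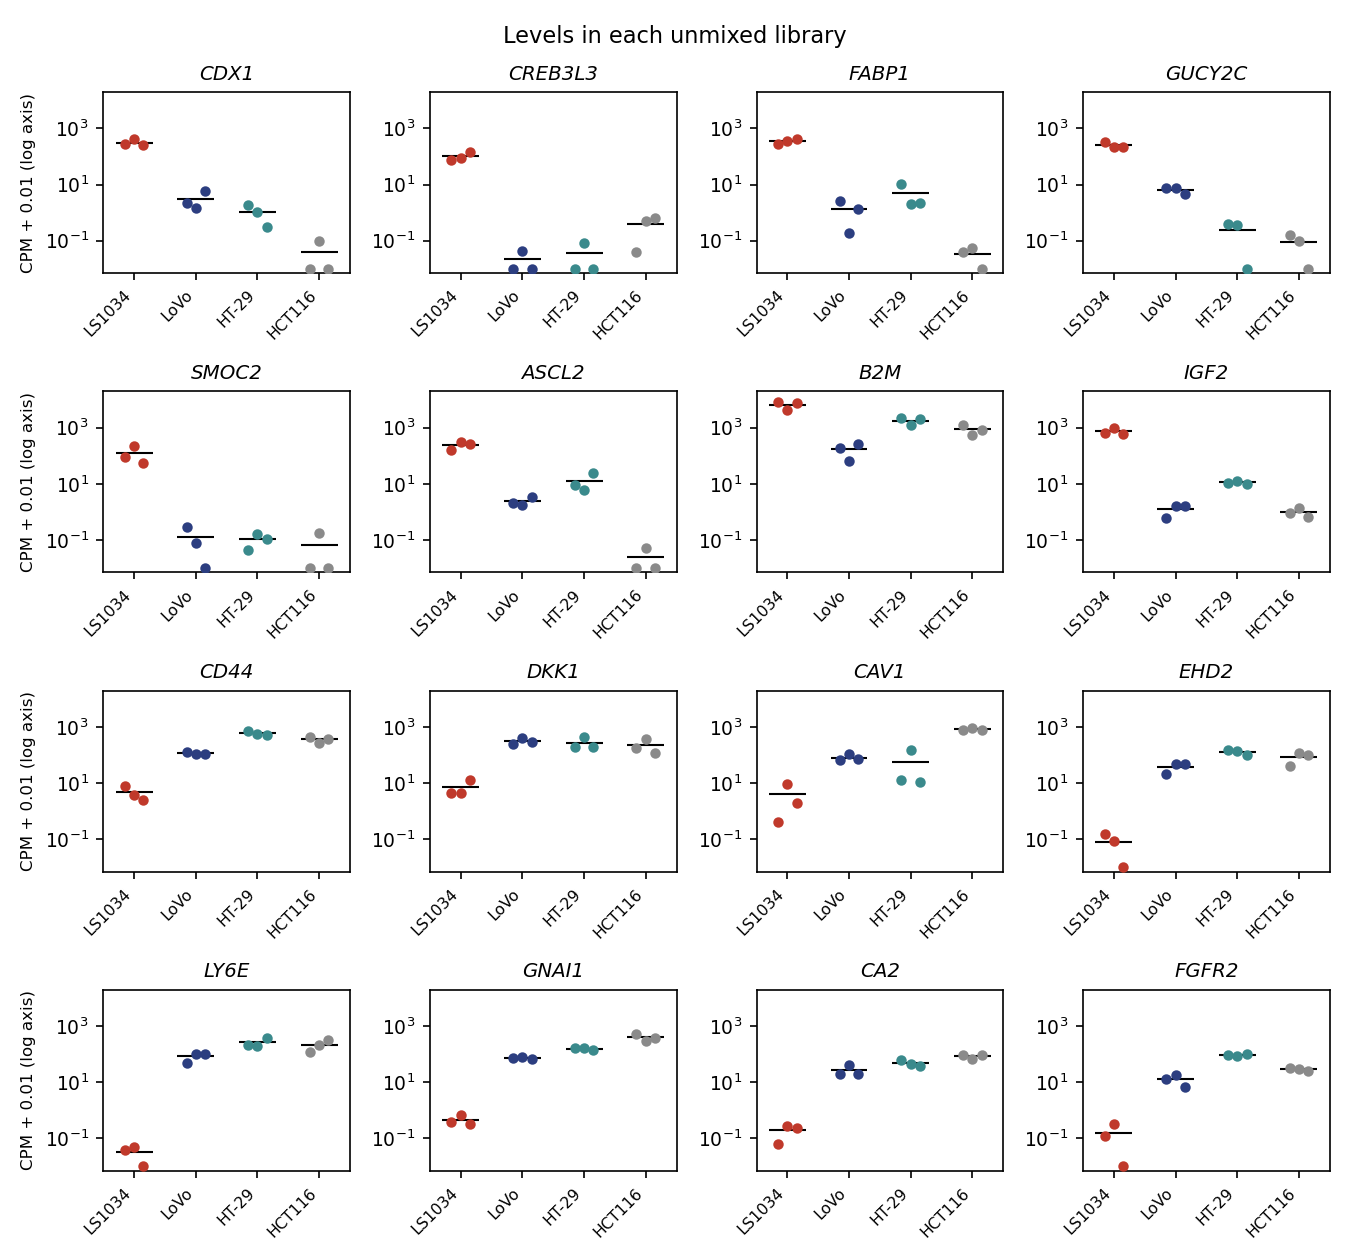
Levels of 16 genes named in the text, in CPM + 0.01 on a log axis, with 1 point per library and a line at the mean of each cell line (n = 3). The LS1034 points lie above all others for genes such as CDX1, FABP1, SMOC2 and IGF2 and below all others for genes such as CD44, LY6E, GNAI1 and CA2.

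Genes that load peptides onto HLA class I molecules had the largest share of higher members of any list. Of 18 tested genes of HLA class I and peptide loading, 9 were higher in LS1034 than in each line, or 50% of them, beside 3.94% of all genes tested. None was lower, and the median log2 fold change against the mean was 2.33. B2M, the shared light chain of class I molecules, stood at 8328, 4222 and 7645 CPM in LS1034, 182, 64.3 and 271 CPM in LoVo, 2197, 1213 and 2012 CPM in HT-29 and 1262, 559 and 816 CPM in HCT116. TAP1, a subunit of the transporter that brings peptides to them, stood at 124, 114 and 135 CPM, against 6.55 to 32.8 CPM (median 17.1). NLRC5, the transactivator of class I genes, stood at 80.2, 101 and 103 CPM, against 2.42 to 20.1 CPM (median 4.86). No library of another line reached an LS1034 library for these genes, and B2M was lowest in LoVo. They rose by 1.897 ± 0.45 against HT-29, 2.37 ± 0.34 against LoVo and 3.25 ± 0.49 against LoVo (edgeR QL, BH adjusted p = 0.00548, 6.44e-05 and 1.08e-04). TAPBPL, a peptide editor of class I molecules, rose by 2.701 ± 0.38 against LoVo (edgeR QL, BH adjusted p = 6.03e-05), and ERAP1, which trims peptides, by 1.66 ± 0.33 against LoVo (edgeR QL, BH adjusted p = 0.00109). The remaining 4 were HLA-E, HLA-F and the immunoproteasome subunits PSMB8 and PSMB9. Their calls did not hold in every fit. HLA-E lost its call without LS1034 replicate 3 (adjusted p = 0.0769), HLA-F without LS1034 replicates 1 and 3 and LoVo replicates 1 and 2 (adjusted p of 0.0802 to 0.115), PSMB8 without LS1034 replicates 1 and 3 and LoVo replicate 1 and in a fit of the cancer libraries alone (adjusted p of 0.0518 to 0.103) and PSMB9 without LS1034 replicate 3 and LoVo replicate 1 (adjusted p of 0.063 to 0.0679).

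HLA-B, a classical class I heavy chain, was not among the called genes. It averaged 17.01 ± 9.38 CPM in LS1034, 7.32 ± 1.88 CPM in LoVo, 4.69 ± 1.26 CPM in HT-29 and 1.72 ± 1.73 CPM in HCT116, and was not called against LoVo (1.205 ± 0.63 against LoVo, edgeR QL, BH adjusted p = 0.173). The HLA genes are alike in sequence and differ between people, so reads can be lost or split between them and their levels are uncertain. CD74, the chain that guides class II molecules, was the 1 of 8 class II genes that was higher. It stood at 97.5, 106 and 110.1 CPM in LS1034 and at 0 to 3.87 CPM (median 0.138) in the others (5.33 ± 0.71 against HT-29, edgeR QL, BH adjusted p = 3.89e-05). CIITA, the class II transactivator, averaged 0.231 ± 0.204 CPM in LS1034 and was not called against any of the 3 lines (edgeR QL, BH adjusted p = 0.866 at the largest).

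Interferon-stimulated genes gave 3 higher of 34 tested (8.82%, beside 3.94% of all genes tested) and 0 lower, with a median log2 fold change against the mean of 0.79. IFITM1, a membrane protein that hinders virus entry, stood at 331, 276 and 162 CPM in LS1034 and at 0.303 to 2.79 CPM (median 1.004) in the others (7.27 ± 0.64 against HT-29, edgeR QL, BH adjusted p = 7.22e-07). It belongs to a family of near-identical copies, which makes its level uncertain. OAS1, a sensor of double-stranded RNA, lost its call without LS1034 replicate 1 (adjusted p = 0.067). ISG20, a nuclease, varied more between LS1034 libraries (109, 21.05 and 196 CPM) and lost its call without LS1034 replicate 3 and HT-29 replicates 2 and 3 (adjusted p of 0.0527 to 0.152). Of 22 chemokines and NF-kappaB targets, IL32 and SAA1 were higher and CXCL16 and TNFAIP2 lower. CXCL16, a chemokine anchored in the membrane, stood at 12.8, 7.93 and 10.1 CPM, against 28.1 to 132 CPM (median 65.3) (-1.87 ± 0.34 against HT-29, edgeR QL, BH adjusted p = 7.14e-04). TNFAIP2, a gene switched on by TNF, stood at 1.87, 1.86 and 0.692 CPM, against 3.91 to 115 CPM (median 42.3) (-2.24 ± 0.37 against LoVo, edgeR QL, BH adjusted p = 2.65e-04). IL32, a cytokine, lost its call without LS1034 replicate 3 (adjusted p = 0.075). SAA1, an acute phase protein, had 74 counts in LS1034 and 1 count in the 9 other libraries, a ratio of 222-fold (counting interval 38.7 to 8905).

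Among growth factors and their receptors, LS1034 had high IGF2 and low levels of several receptors. IGF2, a fetal growth factor that binds the insulin-like growth factor receptor, stood at 669, 971 and 584 CPM in LS1034 and at 0.606 to 12.3 CPM (median 1.59) in the others. All LS1034 libraries were far above the rest, of which HT-29 was highest (6.05 ± 0.39 against HT-29, edgeR QL, BH adjusted p = 4.25e-08). EGFR, the EGF receptor, stood at 22.4, 17.1 and 26.4 CPM in LS1034, against 45.5 to 154 CPM (median 80.2). FGFR2, a receptor for fibroblast growth factors, stood at 0.112, 0.3095 and 0 CPM, against 6.75 to 101 CPM (median 29.2). Both were lower in each LS1034 library than in any other. EGFR fell by 1.55 ± 0.34 against HCT116 (edgeR QL, BH adjusted p = 0.00194) and FGFR2 by 6.31 ± 0.59 against LoVo (edgeR QL, BH adjusted p = 2.97e-06). LRIG3, a membrane protein of the family of LRIG1, fell as well (-2.77 ± 0.31 against HCT116, edgeR QL, BH adjusted p = 4.23e-06). MET, the receptor of hepatocyte growth factor, stood at 313, 160.1 and 265 CPM in LS1034, against 341 to 771 CPM (median 563), and its call ended without LS1034 replicates 2 and 3, LoVo replicate 1 and HCT116 replicate 1 (adjusted p of 0.0519 to 0.111). IRS1, an adaptor of the insulin receptors, lost its call without LS1034 replicates 1 and 3 and LoVo replicates 1 and 2 (adjusted p of 0.079 to 0.105). KIT, the stem cell factor receptor, was higher but low at 1.80 ± 1.24 CPM in LS1034 and lost its call in a fit of the cancer libraries alone (adjusted p = 0.0728). In all, 2 of 22 genes on the growth factor receptor list were higher and 3 lower. Of 15 tested genes on the list of EGF ligands and ERBB receptors, 0 were higher and 2 lower, EGFR and LRIG3. LRIG3 is neither such a ligand nor such a receptor.

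Of the downstream signalling lists, Notch genes had the largest share higher in LS1034 (15.8%, beside 3.94% of all genes tested). Of 23 MAPK output genes, MMP1 was higher and ETV5 lower. MMP1, an interstitial collagenase, stood at 10.8, 0.310 and 9.61 CPM in LS1034, against 0 to 0.568 CPM (median 0.0865) (4.31 ± 1.04 against HT-29, edgeR QL, BH adjusted p = 0.00579). The groups overlapped for MMP1, through LS1034 replicate 2. ETV5, an ETS factor induced by the pathway, stood at 26.5, 6.27 and 23.1 CPM in LS1034, against 64.4 to 255 CPM (median 135) (-2.62 ± 0.49 against HT-29, edgeR QL, BH adjusted p = 7.93e-04). Of 28 TGF-beta and BMP genes, 2 were lower. TGFB1, the ligand, stood at 1.396, 1.66 and 0.769 CPM in LS1034 and at 3.75 to 32.7 CPM (median 19.4) in the others (-2.75 ± 0.41 against HT-29, edgeR QL, BH adjusted p = 1.28e-04). ACVR2A, an activin receptor, stood at 0.754, 0.155 and 5.38 CPM, against 14.04 to 39.7 CPM (median 21.1) (-3.13 ± 0.77 against HT-29, edgeR QL, BH adjusted p = 0.00673). Notch genes gave 3 higher of 19. JAG1, a Notch ligand, stood at 320.2, 309.7 and 343 CPM, against 30.3 to 128 CPM (median 43.6), with no overlap (1.65 ± 0.32 against LoVo, edgeR QL, BH adjusted p = 9.65e-04). The other 2 were the ligand DLL4, which lost its call without LS1034 replicate 2 (adjusted p = 0.101), and MFNG, a glycosyltransferase acting on Notch, which lost it without LS1034 replicate 3 and HCT116 replicates 1 and 3 (adjusted p of 0.052 to 0.104). Of 31 p53 target genes, 2 were higher than each line (6.45%, beside 3.94% of all genes tested) and 0 lower. Against the mean of the lines, 5 were higher and 9 lower, and the median log2 fold change was 0.19. PERP, a desmosome protein, was higher at 2610.5, 1773 and 2249.8 CPM, against 199 to 750.1 CPM (median 519.96) (1.94 ± 0.35 against LoVo, edgeR QL, BH adjusted p = 4.82e-04). TP53I3, a quinone reductase, lost its call without LS1034 replicate 3, LoVo replicate 1 and HT-29 replicates 1, 2 and 3 and in a fit of the cancer libraries alone (adjusted p of 0.0506 to 0.148).

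Several genes that were well expressed in the other lines were near 0 in LS1034. LY6E, a lipid-anchored surface protein, had 2 counts in the 3 LS1034 libraries and 47.3 to 382 CPM (median 203) in the others, which puts the others 6245-fold (counting interval 1729 to 51568) above LS1034. EHD2, an ATPase of the necks of caveolae, stood at 0.1396, 0.0774 and 0 CPM in LS1034, against 20.9 to 147 CPM (median 104). GNAI1, an inhibitory G protein subunit, stood at 0.363, 0.696 and 0.307 CPM, against 66.1 to 537 CPM (median 164). None of the 3 genes reached 1 CPM in an LS1034 library or fell under 20 CPM in another. The fitted log2 fold changes of EHD2 and GNAI1 were -8.66 ± 0.61 against LoVo (edgeR QL, BH adjusted p = 8.98e-08) and -7.26 ± 0.38 against LoVo (edgeR QL, BH adjusted p = 5.01e-09), and LY6E was called with edgeR QL, BH adjusted p = 1.80e-08. CA2 stood at 0.0558, 0.271 and 0.231 CPM in LS1034, against 19.1 to 97.7 CPM (median 44.5) (-7.28 ± 0.56 against LoVo, edgeR QL, BH adjusted p = 1.85e-07). AK4, a mitochondrial adenylate kinase, stood at 0.335, 1.55 and 0 CPM, against 32.99 to 90.2 CPM (median 70.5) (-6.39 ± 0.72 against LoVo, edgeR QL, BH adjusted p = 7.03e-06). F2R, the thrombin receptor, stood at 1.03, 1.08 and 0.692 CPM, against 27.9 to 79.2 CPM (median 60.01) (-5.52 ± 0.41 against HCT116, edgeR QL, BH adjusted p = 1.21e-07). A4GALT, which makes the glycolipid Gb3, fell as well (-5.62 ± 0.83 against HCT116, edgeR QL, BH adjusted p = 7.66e-05), as did PDGFC, a ligand of platelet-derived growth factor receptors (-7.46 ± 0.87 against LoVo, edgeR QL, BH adjusted p = 9.87e-06).

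The remaining genes of largest downward fold were, by the naming rule, chosen to have no overlap between LS1034 and the others. KIRREL1, an adhesion protein of the nephrin family, stood at 0, 0.232 and 0 CPM in LS1034, against 6.91 to 42.9 CPM (median 16.4) (-7.30 ± 0.88 against HT-29, edgeR QL, BH adjusted p = 1.56e-05). TBC1D9, a protein with a Rab GTPase-activating domain, stood at 0.112, 0.193 and 0 CPM in LS1034, against 7.37 to 29.9 CPM (median 20.4) (-6.87 ± 0.64 against LoVo, edgeR QL, BH adjusted p = 1.03e-06). PNRC2, a nuclear receptor coactivator that also acts in mRNA decay, stood at 0.307, 0.116 and 0.231 CPM in LS1034, against 10.1 to 36.04 CPM (median 19.6) (-5.87 ± 0.497 against HCT116, edgeR QL, BH adjusted p = 2.47e-07). ZNF655, a zinc finger protein, and FAM83B and TMEM64 complete the set, at -8.07 ± 0.696 against HT-29, -5.502 ± 0.605 against LoVo and -5.48 ± 0.59 against HT-29 on the log2 scale (edgeR QL, BH adjusted p = 5.88e-07, 5.43e-06 and 4.66e-06).

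Further genes of the caveolae, the small pits of the cell membrane in which EHD2 works, were lower in LS1034, and they were chosen after their values were seen. CAV2, a caveolin, stood at 7.15, 7.24 and 4.76 CPM in LS1034 and at 64.9 to 524 CPM (median 191) in the others, with no overlap (-3.84 ± 0.32 against HT-29, edgeR QL, BH adjusted p = 4.78e-07). CAVIN1, which coats the pits, stood at 12.6, 33.4 and 27.8 CPM, against 62.6 to 293 CPM (median 129) (-2.32 ± 0.47 against LoVo, edgeR QL, BH adjusted p = 0.00149). CAV1, the main caveolin, stood at 0.391, 9.63 and 1.998 CPM in LS1034, 68.7, 106 and 69.4 CPM in LoVo, 13.4, 152 and 11.3 CPM in HT-29 and 758, 943 and 750.01 CPM in HCT116. Replicate 2 was the highest CAV1 library in each of the 4 lines, and the call of CAV1 ended without HT-29 replicate 2 (adjusted p = 0.147).

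The promoters of GNAI1 and EHD2 are shown beside those above because both genes were near 0 in LS1034 and on in the other lines, and their windows are dense in CpG. The GNAI1 window lies at chr7:80134581-80134880 on the plus strand with 42 CpG, and the EHD2 window at chr19:47713172-47713471 on the plus strand with 30 (GRCh38.p14, from RefSeq, capitals mark CpG pairs).
GNAI1: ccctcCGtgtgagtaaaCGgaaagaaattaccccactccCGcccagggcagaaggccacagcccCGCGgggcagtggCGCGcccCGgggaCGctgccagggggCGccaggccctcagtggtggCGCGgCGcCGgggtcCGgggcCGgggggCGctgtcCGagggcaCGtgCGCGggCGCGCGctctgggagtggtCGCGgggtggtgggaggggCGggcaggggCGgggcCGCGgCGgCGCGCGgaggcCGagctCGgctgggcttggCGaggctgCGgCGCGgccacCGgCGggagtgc
EHD2: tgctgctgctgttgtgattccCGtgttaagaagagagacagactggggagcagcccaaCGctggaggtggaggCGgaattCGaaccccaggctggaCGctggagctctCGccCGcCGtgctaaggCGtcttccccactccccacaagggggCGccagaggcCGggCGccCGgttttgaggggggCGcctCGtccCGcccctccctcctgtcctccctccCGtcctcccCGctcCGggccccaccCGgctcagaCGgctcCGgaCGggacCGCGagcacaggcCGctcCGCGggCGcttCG

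Metabolic, transport and sugar-transferring genes on several lists differed. SLC2A3, a glucose transporter of high affinity, stood at 588, 407 and 750.2 CPM in LS1034 and at 0 to 15.3 CPM (median 0.4499) in the others (6.34 ± 0.88 against HCT116, edgeR QL, BH adjusted p = 3.76e-05), and reads can be split with its near-identical neighbour SLC2A14, which makes its level uncertain. Of 30 glycolysis and hypoxia genes it was the 1 higher, and 3 were lower. These were the enzymes PFKP and ENO2 and the hypoxia-induced BNIP3, of which PFKP lost its call without LS1034 replicates 1 and 3 and LoVo replicates 2 and 3 and in a fit of the cancer libraries alone (adjusted p of 0.06 to 0.18), ENO2 without LS1034 replicates 2 and 3, LoVo replicate 2 and HT-29 replicate 1 (adjusted p of 0.0551 to 0.0674) and BNIP3 without LS1034 replicate 1 and HT-29 replicate 2 (adjusted p of 0.0749 to 0.345). ABCB1, the drug efflux pump P-glycoprotein, stood at 373, 343 and 453 CPM in LS1034, against 0 to 48.8 CPM (median 5.75), with LoVo nearest (3.27 ± 0.43 against LoVo, edgeR QL, BH adjusted p = 3.34e-05). Of 21 ABC transporters, 3 were higher and ABCC4 lower. ABCC4, an exporter of cyclic nucleotides and drugs, fell (-1.52 ± 0.38 against LoVo, edgeR QL, BH adjusted p = 0.00626). ABCC6 lost its call without LS1034 replicates 1, 2 and 3 and LoVo replicates 1 and 3 (adjusted p of 0.06 to 0.122), and ABCC10 fell under the fold limit without HCT116 replicate 1.

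Lewis and mucin-type glycosyltransferases gave 5 higher of 26 tested (19.2%) and 1 lower, with a median log2 fold change against the mean of 0.61. FUT3, which makes Lewis antigens, stood at 42.6, 20.1 and 49.03 CPM in LS1034, against 0.0446 to 7.698 CPM (median 0.259) (3.15 ± 0.83 against HT-29, edgeR QL, BH adjusted p = 0.0119). FUT6, its close copy, stood at 12.7, 21.5 and 13.8 CPM, against 0 to 0.649 CPM (median 0) (6.24 ± 1.29 against HCT116, edgeR QL, BH adjusted p = 0.00199), and reads of the pair can be split. B3GNT3, which extends mucin sugars, and GALNT6, which starts them, rose by 1.302 ± 0.29 against HT-29 and 2.02 ± 0.402 against LoVo (edgeR QL, BH adjusted p = 0.0041 and 0.00118). FUT2, the secretor gene, lost its call without LS1034 replicates 1 and 2 and HT-29 replicate 2 (adjusted p of 0.0655 to 0.108). ST3GAL1, a sialyltransferase, stood at 0.642, 2.59 and 0 CPM in LS1034, 7.94, 17.5 and 15.3 CPM in LoVo, 455, 543 and 461 CPM in HT-29 and 10.2, 14.3 and 14.4 CPM in HCT116 (-3.49 ± 0.63 against HCT116, edgeR QL, BH adjusted p = 4.58e-04). Of 27 xenobiotic and redox genes 0 were higher and 4 lower (14.8%, beside 3.77% of all genes tested). Against the mean of the lines, 4 were higher and 5 lower, and the median log2 fold change was 0.02. Lower than each line were CYP1B1, a cytochrome that oxidises estrogens (-5.56 ± 0.66 against HCT116), AKR1B10, an aldo-keto reductase (-2.72 ± 0.72 against HCT116), ALDH1A3, which makes retinoic acid (-2.14 ± 0.403 against HT-29), and TXNRD1, thioredoxin reductase (-1.16 ± 0.24 against LoVo). Their edgeR QL, BH adjusted p = 7.25e-06, 0.00723, 9.38e-04 and 0.00184 in that order. PLIN2, a coat protein of lipid droplets, was the 1 higher gene of 27 in cholesterol and fatty acid metabolism, at 262, 203 and 240.01 CPM, against 0 to 46.5 CPM (median 11.6) (2.54 ± 0.296 against HCT116, edgeR QL, BH adjusted p = 6.34e-06).

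Genes of the cell cycle were mostly not called. Of 36 cell cycle and mitosis genes, 0 were higher and 4 (11.1%, beside 3.77% of all genes tested) lower, among them an inhibitor of the cycle (median log2 fold change against the mean -0.46). CCNA2, the cyclin of S phase and G2, stood at 43.6, 79.2 and 57.6 CPM in LS1034, against 129.5 to 329.8 CPM (median 214) (-1.53 ± 0.32 against LoVo, edgeR QL, BH adjusted p = 0.00191). CDKN2A, an inhibitor of cyclin-dependent kinases, stood at 1.23, 0.967 and 1.77 CPM, against 4.01 to 268 CPM (median 56.9) (-2.05 ± 0.39 against LoVo, edgeR QL, BH adjusted p = 8.70e-04). CCNB1, the mitotic cyclin, lost its call without LS1034 replicates 1 and 3 and HT-29 replicate 3 (adjusted p of 0.0967 to 0.134), and CDK6, a kinase of G1, lost it without LS1034 replicates 1, 2 and 3, LoVo replicate 2, HT-29 replicates 1 and 2 and HCT116 replicates 1 and 2 and with scaling by library size alone (adjusted p of 0.0501 to 0.167). MKI67, the proliferation antigen, averaged 148 ± 54.9 CPM in LS1034, 204 ± 103 CPM in LoVo, 251 ± 38.5 CPM in HT-29 and 211 ± 55.8 CPM in HCT116, and was not called against LoVo (edgeR QL, BH adjusted p = 0.464).

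The genes with the largest folds upward include several not usually ascribed to colon epithelium. TMEM211, a transmembrane protein, stood at 30.5, 25.6 and 22.98 CPM in LS1034 and had no count in the 9 other libraries, which makes it at least 2058-fold higher at 3 counts over the others. STYXL2, a phosphatase-like protein of muscle, stood at 224, 363 and 206 CPM, against 0 to 0.216 CPM (median 0) (11.88 ± 0.82 against HCT116, edgeR QL, BH adjusted p = 2.82e-07). DRD2, a dopamine receptor, stood at 25.5, 157 and 37.6 CPM, against 0 to 0.138 CPM (median 0) (9.61 ± 1.11 against HT-29, edgeR QL, BH adjusted p = 2.12e-05). LS1034 replicate 2 was the highest for STYXL2 and DRD2, and no other line reached 1 CPM. RLBP1, a retinaldehyde carrier of the eye, stood at 16.9, 3.598 and 62.6 CPM, against 0 to 0.0432 CPM (median 0) (9.61 ± 1.24 against HT-29, edgeR QL, BH adjusted p = 5.80e-05). COL5A1, a fibrillar collagen chain, stood at 56.5, 88.99 and 153 CPM, against 0 to 0.432 CPM (median 0.189) (8.82 ± 0.802 against HCT116, edgeR QL, BH adjusted p = 8.96e-07). UCHL1, a ubiquitin hydrolase of neurons, stood at 118, 168 and 276 CPM, against 0 to 4.53 CPM (median 0.312) (6.04 ± 0.71 against LoVo, edgeR QL, BH adjusted p = 1.10e-05). Of 28 mesenchymal and fibroblast genes COL5A1, SNAI2, PDGFRB and FN1 were higher. PDGFRB, at 3.77, 3.10 and 3.38 CPM in LS1034, is also one of the fibroblast markers summed above. Those markers summed to 5.08 to 10.1 CPM in LS1034 and 2.07 to 10.0 CPM in LoVo. HT-29 had 6.36 to 29.3 CPM and HCT116 8.34 to 30.7 CPM. SNAI2, a repressor of epithelial genes, averaged 4.78 ± 3.64 CPM in LS1034 (3.66 ± 0.704 against HCT116, edgeR QL, BH adjusted p = 6.72e-04), and FN1, fibronectin, lost its call without LS1034 replicate 2 (adjusted p = 0.0798).

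The remaining genes of largest upward fold include 3 known from immune cells. CST7, a cystatin of immune cells, stood at 22.03, 17.1 and 32.9 CPM in LS1034, against 0 to 0.0865 CPM (median 0) (9.57 ± 0.94 against HCT116, edgeR QL, BH adjusted p = 5.16e-06). CCL24, a chemokine that attracts eosinophils, stood at 10.7, 28.7 and 12.6 CPM in LS1034, against 0 to 0.104 CPM (median 0) (8.64 ± 1.097 against LoVo, edgeR QL, BH adjusted p = 5.14e-05). FPR3, a formyl peptide receptor of myeloid cells, stood at 58.6, 27.97 and 37.1 CPM in LS1034, against 0 to 0.227 CPM (median 0) (7.98 ± 0.82 against HT-29, edgeR QL, BH adjusted p = 1.88e-05). The rule that named these 3 required no overlap between LS1034 and the others. The separate set of summed immune cell markers stood at 0.461 to 2.34 CPM in LS1034, against 3.67 to 9.33 CPM in HT-29 and at most 0.802 CPM in LoVo and HCT116. Of the 7 tested genes on the immune marker list, 2 were higher than each line and 4 higher than the mean of the lines, and the part of immune cells in the result was not tested. CTSF, a lysosomal protease, stood at 27.9, 17.9 and 26.7 CPM in LS1034, against 0 to 0.259 CPM (median 0.0446) (7.94 ± 0.78 against HCT116, edgeR QL, BH adjusted p = 1.79e-06). RUBCNL, a regulator of autophagy, stood at 109, 127 and 153 CPM in LS1034, against 0 to 0.422 CPM (median 0) (9.05 ± 0.76 against LoVo, edgeR QL, BH adjusted p = 3.68e-06). GSPT2, a translation termination factor, stood at 27.5, 16.5 and 35.4 CPM in LS1034, against 0 to 0.216 CPM (median 0.0345) (8.09 ± 0.74 against HCT116, edgeR QL, BH adjusted p = 8.96e-07). The naming rule required no overlap of these 3 as well.

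Of the 783 genes tested that stood on any of the 38 lists, 80 were higher than each line and 34 lower, beside 3.94% and 3.77% of all genes tested. The other lists had at most 2 called members in a direction, in some cases of only 6 or 7 tested. Junctions and keratins gave 2 higher of 33, the keratin KRT23 (2.95 ± 0.54 against HCT116, edgeR QL, BH adjusted p = 4.32e-04) and the plakophilin PKP2 (1.18 ± 0.23 against LoVo, edgeR QL, BH adjusted p = 0.00118), and 1 lower, the epithelial factor GRHL1 (-3.33 ± 0.43 against HCT116, edgeR QL, BH adjusted p = 1.79e-05). Of 25 integrins and laminins the laminin chain LAMB1 was lower (-1.42 ± 0.33 against HCT116, edgeR QL, BH adjusted p = 0.00272). Among 26 proteases and inhibitors the inhibitors TIMP3 and SPINK1 were higher, TIMP3 by 2.48 ± 0.55 against HCT116 (edgeR QL, BH adjusted p = 0.0023), and SPINK1 lost its call without LS1034 replicate 3 and HT-29 replicates 2 and 3 (adjusted p of 0.0509 to 0.0762). Of 6 CEACAM genes (median log2 fold change against the mean 4.19) CEACAM6 was higher at 599, 339 and 892 CPM, against 0 to 298 CPM (median 119), and lost its call without LS1034 replicate 3 and LoVo replicate 1 (adjusted p of 0.0535 to 0.0764). The list of 33 HOX and gut position genes gave HOXD9, which lost its call without LS1034 replicate 1 and HT-29 replicates 2 and 3 and with DESeq2 (adjusted p of 0.0508 to 0.0822). Of 7 immune markers LCP1 and CORO1A were higher (28.6%, median log2 fold change of the list against the mean 2.40), with CORO1A at 9.99, 59.8 and 32.8 CPM, against 0.316 to 5.18 CPM (median 3.29) (2.96 ± 0.71 against HT-29, edgeR QL, BH adjusted p = 0.00547), and LCP1 losing its call without LS1034 replicates 1 and 3 and HCT116 replicates 1, 2 and 3 (adjusted p of 0.0521 to 0.132). Of 7 endothelial markers ESAM was lower (14.3%), of 7 neural and muscle markers UCHL1 and DES were higher (28.6%), and the cancer testis list gave the higher MAGEA1 and the lower MAGEA3. DES lost its call without LS1034 replicates 1, 2 and 3 and HCT116 replicates 1 and 2 and with scaling by library size alone (adjusted p of 0.0502 to 0.12) and MAGEA1 without LS1034 replicates 1, 2 and 3, LoVo replicates 1, 2 and 3, HT-29 replicates 1 and 3 and HCT116 replicate 1, with no filter on low counts, with DESeq2 and in a fit of the cancer libraries alone (adjusted p of 0.0514 to 0.215). In 5 lists no tested gene differed from each line: 8 mismatch repair genes, 25 MYC targets and ribosome biogenesis genes, 16 S100 and annexin genes, 13 mitochondrially encoded genes and 11 replication-dependent histones.

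**Figure D3:**
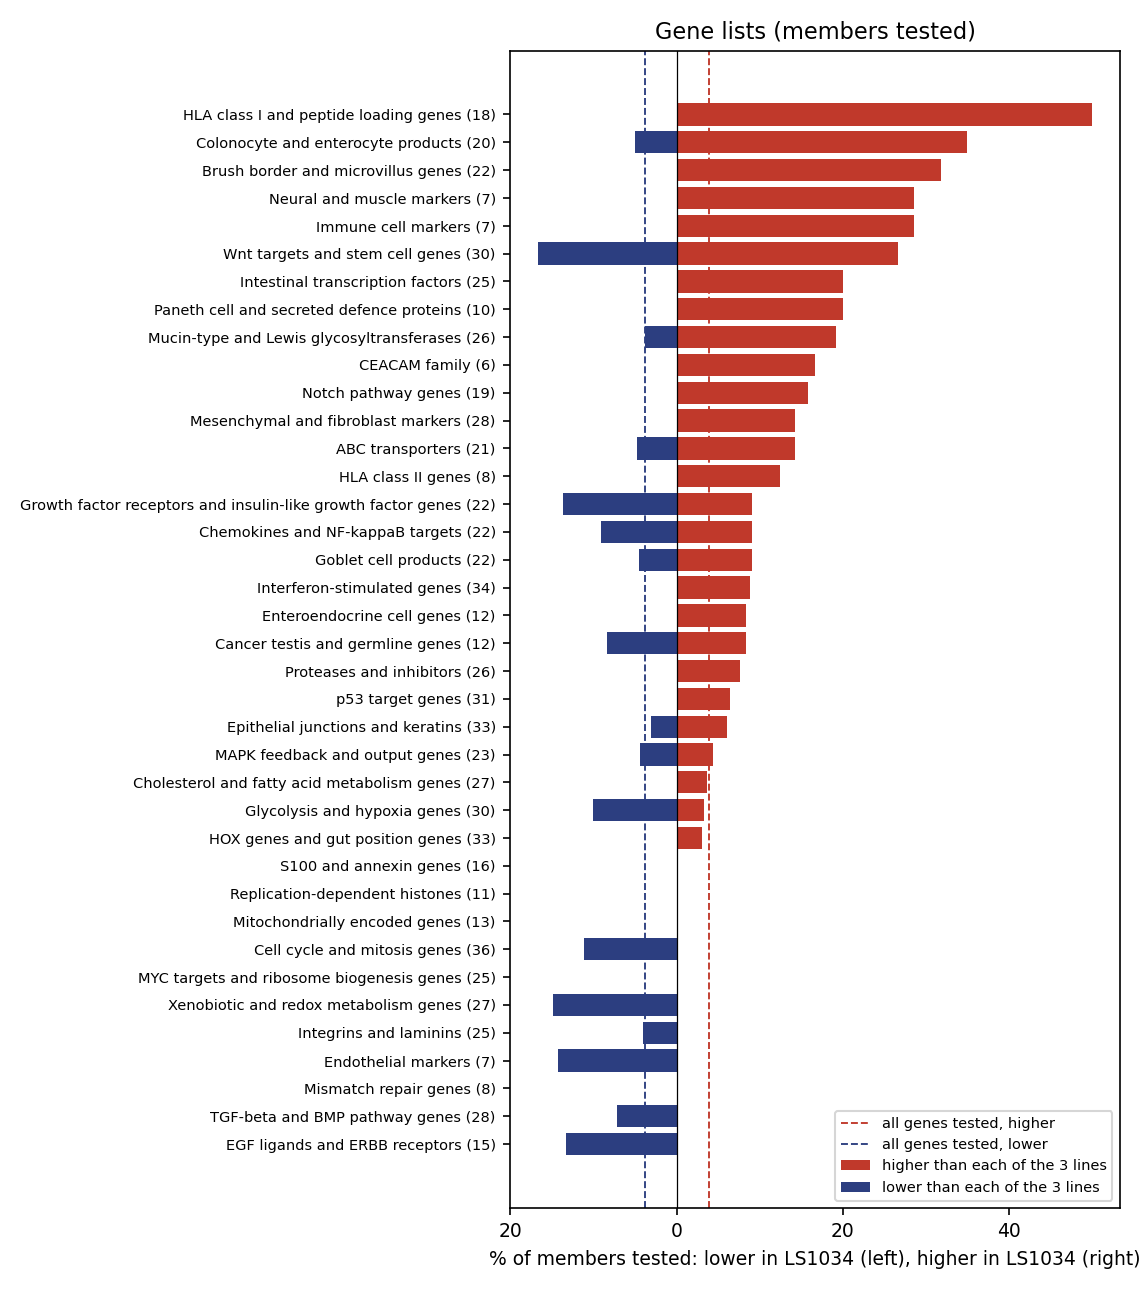
For each of 38 gene lists, the percentage of its tested members that were higher (to the right) or lower (to the left) in LS1034 than in each of the 3 other lines, with the percentage over all 14452 genes tested marked. HLA class I and peptide loading genes lead with 50% higher, and several lists, such as xenobiotic and cell cycle genes, lie on the lower side only.

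Distinct genes lay next to each other in places. With the genes in RefSeq order (14405 of 14452 placed), 7 runs of at least 3 neighbouring tested genes were higher in LS1034 than in each line and 6 runs were lower. The longest run upward was PEX5, ACSM4, CD163L1, CD163, APOBEC1, SLC2A14 and SLC2A3 on chromosome 12. The longest downward, on chromosome 4, included PDE5A, MAD2L1, NDNF, ANXA5, EXOSC9, CCNA2 and BBS7, followed on the same chromosome by BBS12, FGF2, NUDT6 and SPATA5 and by INTU, HSPA4L, PLK4 and MFSD8. Other runs held IGF2, TH and ASCL2 on chromosome 11, PSMB8, TAP1 and PSMB9 on chromosome 6, and, downward, CAV2, CAV1 and MET on chromosome 7. TH, tyrosine hydroxylase, the first enzyme of dopamine synthesis, stood at 72.6, 83.3 and 139 CPM in LS1034 and at 0 to 0.725 CPM (median 0) in the others (7.38 ± 0.52 against HT-29, edgeR QL, BH adjusted p = 9.46e-07). Some reads of IGF2 and TH could be shared, since the genes adjoin and the strand setting of the counting is not given in the sources used here.

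The longest runs sat in longer stretches, whose ends were chosen after the values were seen, so they carry no test. From SLC6A12 to ALG10 on chromosome 12, 175 of 202 tested genes had a positive log2 fold change against the mean of the 3 lines, with a median of 1.11. Against LoVo, HT-29 and HCT116 the median was 0.90, 1.297 and 1.18. In that stretch 40 genes (19.8%) were higher than each line and 2 lower, against 18 of 584 (3.08%) higher on the rest of the chromosome, where the median was -0.11. GUCY2C, APOBEC1, SLC2A3, TAPBPL and PKP2, described above, belong to the stretch. From PDE5A to JADE1 on chromosome 4, 24 of 25 tested genes had a negative log2 fold change, with a median of -2.17 (-1.94, -1.82 and -2.43 against LoVo, HT-29 and HCT116). There 18 genes (72%) were lower than each line, against 23 of 522 (4.41%) on the rest of the chromosome. The cell cycle genes CCNA2, MAD2L1, a checkpoint protein, and PLK4, a kinase of centriole copying, lie in it (-1.56 ± 0.29 against LoVo and -1.22 ± 0.29 against LoVo, edgeR QL, BH adjusted p = 6.32e-04 and 0.00415). FGF2, a fibroblast growth factor, had no count in LS1034. It stood at 108, 61.7 and 56.2 CPM in LoVo, 0.0345, 0.492 and 0.0962 CPM in HT-29 and 12.2, 12.1 and 7.799 CPM in HCT116, and its call against HT-29 ended without LS1034 replicate 1 and HT-29 replicate 2 (adjusted p of 0.0511 to 0.133). Copy number was not measured, and its part in these levels was not tested.

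**Figure D4:**
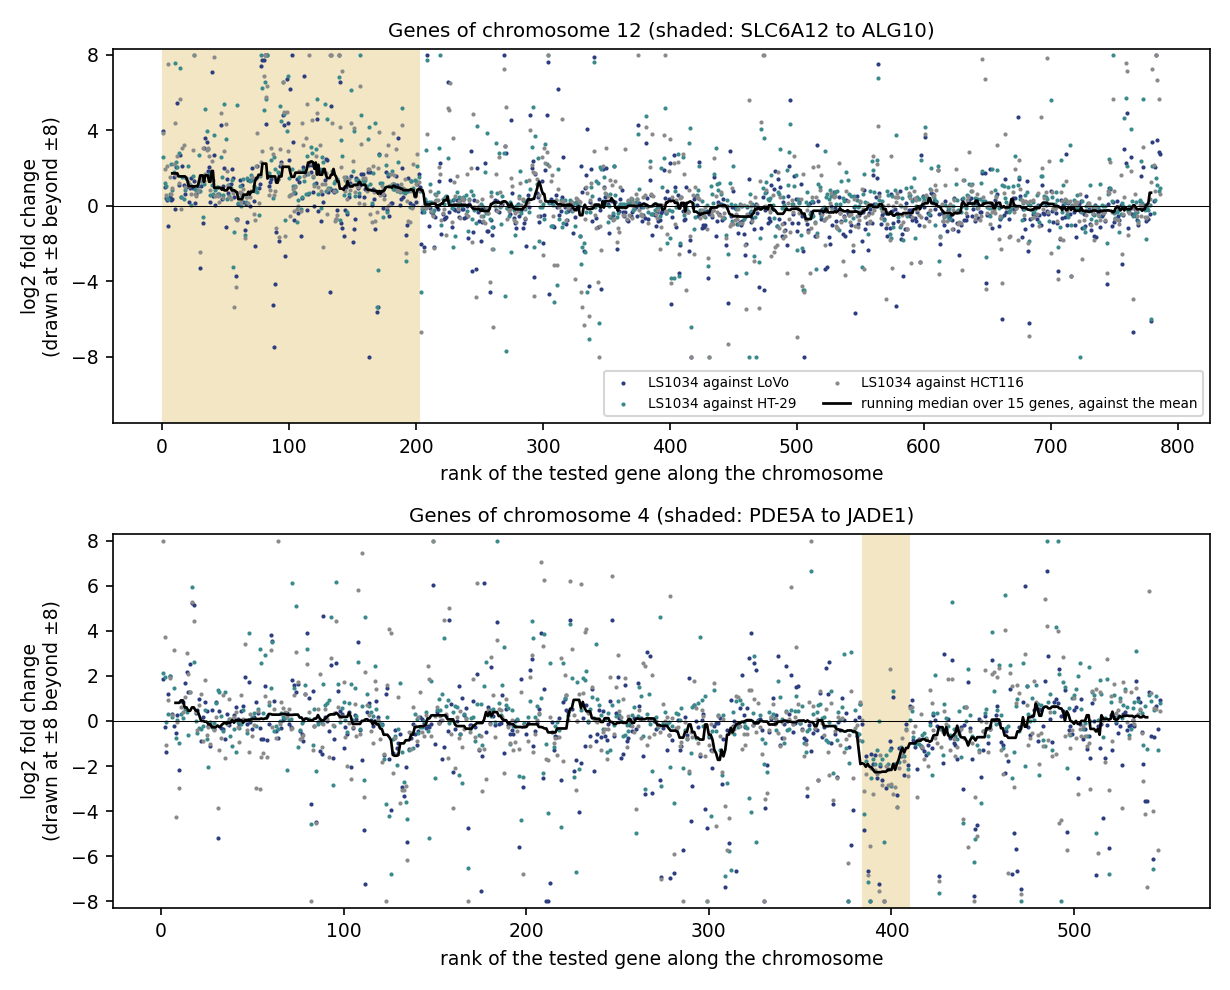
Log2 fold change of LS1034 against LoVo, HT-29 and HCT116 (points) for each tested gene of chromosomes 12 and 4, by the gene's rank along the chromosome, with a line for the running median over 15 genes of the fold change against the mean of the 3 lines, and the stretches shaded. The running median stays above 0 over the 202 genes of the stretch on chromosome 12 and dips below 0 over the 25 genes of the stretch on chromosome 4.

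The start regions of the distinct genes differed in CpG content. RefSeq windows of 300 bases were at hand for 431 of the 569 higher genes, 437 of the 545 lower genes and 11716 of all genes tested. The median number of CpG pairs was 14 in the higher genes (quartiles 4 and 28), 30 in the lower genes (19 and 38) and 26 over all genes tested (16 and 34). Windows with under 5 CpG made up 25.5% of the higher, 4.58% of the lower and 7.86% of all genes. Among higher genes that stayed under 1 CPM in each other line the median was 7 (n = 163), and among lower genes under 1 CPM in LS1034 it was 30 (n = 179). By their choice the first set is under 1 CPM in each of the 3 other lines and the second is higher in each of them than in LS1034. Lower genes of this kind can stay under 1 CPM in another line too, as CREB3L1 did in HCT116 (0.353 CPM). Genes of the first set can also pass the filter on low counts through LS1034 alone. The sets can thus differ in how widely they are expressed, and the part of this in the CpG numbers was not tested. Of the genes printed above, APOBEC1 with 3 CpG belongs to the first set and GNAI1 with 42 and EHD2 with 30 to the second, while FABP1 with 7 passed 1 CPM in LoVo and HT-29 and is in neither. Motifs were searched as letters on both strands. The GATA motif GATAA was in 23.9% of higher, 11.2% of lower and 14.6% of all windows, and the CDX motif TTTATNG in 10.4%, 5.26% and 6.35%. The HNF4 motif CAAAGTCCA was in 1.16% of higher, 0% of lower and 0.299% of all windows, and the HNF1 motif (GTTAAT, any base, then ATT) in 0.928%, 0% and 0.213%. The motifs are rich in A and T and the higher windows poor in CpG, and no test was made of either property.

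**Figure D5:**
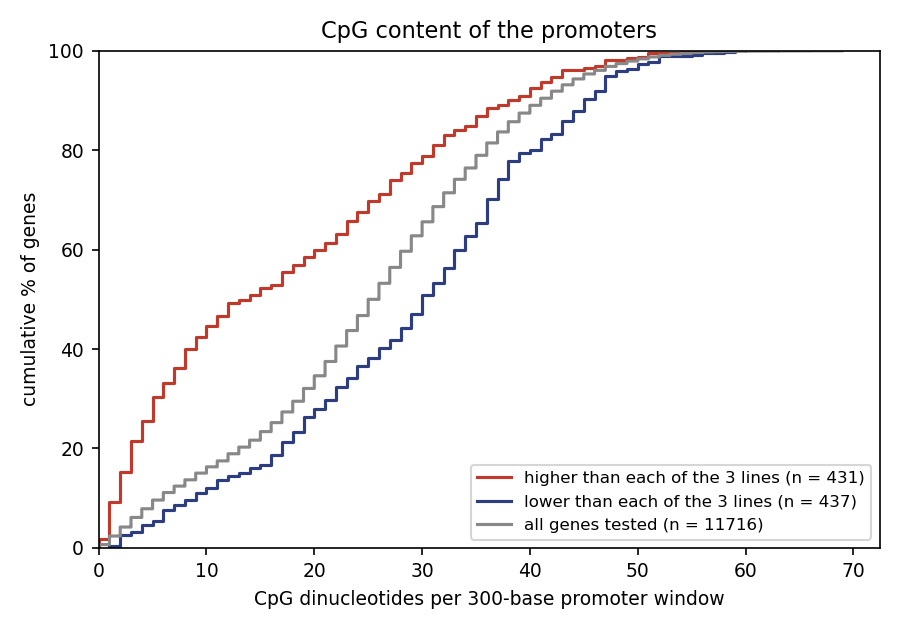
Cumulative percentage of genes by the number of CpG pairs in the 300-base window at the start, for genes higher in LS1034 than in each line, genes lower, and all genes tested. The curve of the higher genes rises first, with 25.5% of them under 5 CpG, and that of the lower genes runs below the curve of all genes at low CpG numbers.

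The mixtures, which took no part in choosing the genes, gave 1 library of each line's RNA at each share with RNA of CCD 841 CoN, so they carry no test. In the 4 mixtures of 50% cancer RNA (14442619 to 54714765 counts), 522 of the 569 higher genes (91.7%) were highest in the LS1034 mixture, which 26.4% of all genes tested were. Of the 545 lower genes, 428 (78.5%) were lowest in the LS1034 mixture, against 23% of all genes. At 10% cancer RNA the figures were 442 (77.7%, against 24% of all genes) and 307 (56.3%, against 22.5%). Among the lower genes the share differed with the level in CCD 841 CoN, whose RNA fills the rest of a mixture. Of 243 lower genes with a lower mean in CCD 841 CoN than in LoVo, HT-29 and HCT116, 231 were lowest in the LS1034 mixture, and of the other 302, 197 were. The mixed RNA may come from the same extractions as the unmixed libraries, which the labels do not say.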

How the data were processed

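RNA-seq of unmixed and mixed cell line RNA was deposited as 1 table of raw counts per protein-coding gene, which the authors made with STAR and featureCounts on hg19, per the submitters' processing notes (versions not given in the sources used here). Per the labels, the kit was stranded (KAPA, RiboErase); the strand setting of the counting is not given in the sources used here. The 15 unmixed libraries were fitted together by edgeR 4.0.16 with its quasi-likelihood (QL) test, TMM scaling, filterByExpr and 1 coefficient per line (R 4.3.3, limma 3.58.1), and CPM were computed from the deposited counts. Calls needed a Benjamini-Hochberg (BH) adjusted p under 0.05 over all genes tested and a fold of 2 or more in either direction. Tables and figures were made with Python 3.11.15 (matplotlib 3.10.9, scipy 1.17.1, numpy 2.4.6 and pandas 2.3.3). Where a group had no count, the fold was computed at 3 counts over that group. A ratio over 1 to 3 counts has a 95% counting interval, which like that floor reflects no error beyond counting.

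The genes, lists and tests were chosen with earlier results of these data known. Named by rule were, per direction, the 15 called genes whose fold against the nearest line was largest, given at least 10 CPM on the higher side and no overlap, and up to 4 called members per list and direction. Genes outside the rule are said to be chosen after their values were seen or are named where their list or stretch is described. Promoter windows came from RefSeq tables of GRCh38.p14, matched by symbol, and no coordinates were moved between builds. Replicate numbers were checked for pairing. In all 18 pairs of same-numbered libraries of 2 lines, deviations from the line means correlated (r of 0.175 to 0.544), each more than with any other number. The numbers were therefore taken to pair the libraries, which the labels do not say. Total counts also fell from library 1 to 3 in LS1034, LoVo and HT-29, and library 1 was the deepest in HCT116. The part of depth in these correlations was not tested. The main fit and the fits with a library left out had no term for the number. Alternatives were a replicate block, DESeq2 1.42.0, its size factors, library size alone, no filter on low counts, the cancer libraries alone, no fold limit, the 10% mixtures and each of 12 libraries left out. Simulated counts for 14136 genes, with 100 genes changed per fold size, tested the fits. The cancer lines were all given the same mean for each gene, apart from the changed genes in LS1034. Against each line, 1% of 2-fold and 57% of 4-fold changes were found, and 0 of 58 calls were false. Against the mean of the lines, 19% and 81% were found, and 2 of 102 calls were false. The real lines differ from each other in many genes, so these false calls do not measure the error of the calls in the real data.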

Additional observations from a re-analysis of the deposited data

How the results depend on the processing

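Under 20 alternative settings each count of called genes stayed within 1.5 times its value in the report. None of 164 genes followed singly changed sign, and 118 were called under all 20; 45 lost their call under at least 1 setting, and SAA1 was not tested in the 2 fits of the cancer libraries alone. Leaving out each of 12 libraries gave 455 to 606 genes higher and 426 to 544 lower than each line, and 63 to 86 and 28 to 37 list members. It gave 1824 to 2137 higher and 1197 to 1578 lower against the mean, 1533 to 1963 and 1545 to 1949 against LoVo, 1338 to 1760 and 1271 to 1647 against HT-29, and 2137 to 2587 and 1813 to 2396 against HCT116. Fewest of the genes stayed called without LS1034 replicate 3 (437 of 569 and 413 of 545), and DESeq2 called 524 and 535 of them. The replicate block, for the pairing of replicate numbers, gave 651 higher and 582 lower genes, which held 565 of the 569 and 536 of the 545, and ended no call among the 164. The median log2 fold change of all genes against the mean was 0.02, and 0.04 with DESeq2 size factors. Without HT-29 replicate 2 the median against HT-29 was 0.14. The rule, whose fold limit is itself 2, found 1% of simulated 2-fold changes, so genes outside the 1114 are not shown to be alike between LS1034 and the other lines.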

Other observations

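Other genes among the 1114, chosen after their values were seen, are given here, with log2 fold changes against the nearest line. DPEP1, a membrane dipeptidase, stood at 406, 786 and 622 CPM in LS1034 and at 0 to 24.3 CPM (median 0.134) in the 9 other libraries (4.84 ± 0.37 against HT-29, edgeR QL, BH adjusted p = 5.08e-07). TGFBI, a matrix protein that TGF-beta induces, stood at 3277, 1367 and 2667 CPM, against 0.03002 to 44.9 CPM (median 28.2) (5.89 ± 0.62 against HT-29, edgeR QL, BH adjusted p = 3.76e-06). CD9, a tetraspanin of the cell surface and of extracellular vesicles, stood at 2447, 2803 and 2323 CPM, against 245 to 749 CPM (median 343) (1.82 ± 0.23 against LoVo, edgeR QL, BH adjusted p = 2.07e-05). TMSB4X, a thymosin that binds actin monomers, stood at 3094, 3023 and 5457 CPM, against 182 to 1097 CPM (median 508) (2.11 ± 0.398 against HT-29, edgeR QL, BH adjusted p = 9.31e-04). The groups did not overlap for these 4 genes. TMSB4X has near-identical copies in the genome, which makes its level uncertain. CD46, which shields cells from complement, was higher as well (1.37 ± 0.31 against HT-29, edgeR QL, BH adjusted p = 0.00408), and CD47, which shields them from phagocytes, was lower at 18.8, 19.4 and 8.68 CPM, against 78.8 to 188 CPM (median 149) (-2.87 ± 0.38 against HCT116, edgeR QL, BH adjusted p = 2.43e-05).

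A pair of Wnt ligands differed in opposite directions. WNT7B stood at 2 counts in LS1034, against 4.05 to 24.4 CPM (median 18.9), which puts the others 557-fold (counting interval 154 to 4603) above LS1034, and WNT7A was higher at 2.23, 3.75 and 2.997 CPM, against 0 to 0.535 CPM (median 0.0378). WNT7A was called (3.21 ± 0.91 against HCT116, edgeR QL, BH adjusted p = 0.0119) and lost its edgeR QL call without HCT116 replicate 1 (adjusted p = 0.0511). CKB, the brain-type creatine kinase, stood at 21.6, 1.39 and 2.23 CPM in LS1034, against 75.8 to 726 CPM (median 440.1) (-4.096 ± 0.78 against LoVo, edgeR QL, BH adjusted p = 7.87e-04), with LS1034 replicate 1 the highest of the 3. MSN, moesin, which ties actin to the membrane, stood at 19.4, 24.3 and 12.4 CPM, against 41.6 to 528 CPM (median 265) (-1.61 ± 0.303 against LoVo, edgeR QL, BH adjusted p = 7.53e-04). TYMS, thymidylate synthase, the target of fluoropyrimidine drugs, stood at 27.9, 40.4 and 19.7 CPM, against 79.3 to 329 CPM (median 177) (-2.06 ± 0.39 against LoVo, edgeR QL, BH adjusted p = 7.83e-04), and it overlaps ENOSF1 on the other strand, whose reads may be shared. BDNF, a neurotrophin, stood at 0.0558, 0.193 and 0 CPM, against 0.765 to 51.6 CPM (median 20.8) (-3.48 ± 0.501 against LoVo, edgeR QL, BH adjusted p = 7.06e-05). All LS1034 libraries lay below all others for CKB, MSN, TYMS and BDNF.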
